A study of Mus musculus with 24 samples.

Results

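The 10 genes described here are transcription factors and a splicing regulator that stand on either side of the epithelial-mesenchymal transition (EMT), followed through mammary epithelium with and without Id4. They are every row of a deposited table of 24007 genes whose symbol is one of 10 given names: Zeb1, Zeb2, Snai1, Snai2, Twist1 and Twist2 on the mesenchymal side, and Grhl1, Grhl2, Ovol1 and Esrp1 on the epithelial side. The study sorted mouse mammary cells from Id4 knockout (KO) and wild-type (WT) FVB/N females in estrus, at an age of 10 to 12 weeks. Live, lineage-negative cells were separated into basal cells (CD24+ CD29-high CD61+), luminal progenitors (LP, CD24+ CD29-low CD61+) and mature luminal cells (ML, CD24+ CD29-low CD61-). The 6 groups are thus KO basal, WT basal, KO LP, WT LP, KO ML and WT ML, each with 4 biological replicates, and each replicate pooled the glands of 4 to 8 mice. The KO mice come from an earlier line (Yun et al.); the sources used here do not say which part of Id4 it lacks, and the labels name no Cre driver and no lineage markers.

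In an EMT, epithelial cells loosen their junctions and take up mesenchymal traits. ZEB, SNAIL and TWIST proteins bind short E-box motifs and repress epithelial genes such as Cdh1, which encodes E-cadherin. Grainyhead-like factors (GRHL1 and GRHL2) and OVOL1 activate or protect the epithelial programme, GRHL2 and ZEB1 are known to repress each other, and ESRP1 sets the epithelial pattern of mRNA splicing. In the mammary gland SLUG, the product of Snai2, is known as a factor of basal cells. ID4 is a helix-loop-helix protein without a DNA-binding domain that binds E proteins, the partners with which TWIST proteins also dimerize.

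Each library held 3098425 to 7246443 counts, at which 3 counts correspond to 0.382 to 0.966 CPM (CPM, counts relative to library size after TMM scaling over all 24 libraries). Id4 stood at 10.2, 1.12, 10.9 and 0.931 CPM in KO basal replicates 1 to 4, against 86.2, 13.3, 28.8 and 38.7 CPM in WT basal replicates 1 to 4, and at no more than 1.38 CPM in any luminal library. All KO basal values lay below all WT basal values. The sorted populations carried their defining markers. The 6 basal markers summed to between 6782 and 9687 CPM in KO basal and between 4569 and 8487 CPM in WT basal libraries, against at most 158 CPM in any luminal library. Some libraries stood apart: KO basal replicate 3 held 252 CPM of 8 endothelial markers, where the other KO basal libraries held 64.8 to 72.3 CPM. WT basal replicate 2 held 4335 CPM of 5 luminal progenitor markers, where the other WT basal libraries held 109 to 357 CPM. Csn3 alone held 3846 CPM of that sum. Elf5 stood at 293 CPM there, against 2.46 to 12.5 CPM in the other WT basal libraries.

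Promoter windows of RefSeq on GRCm38.p6, from 250 bases before to 50 after a gene's start, were searched for 5 members. No window of Zeb1, Snai2, Grhl2, Ovol1 or Esrp1 entered the search or its counts. Promoter windows are shown because the ZEB, SNAIL and TWIST factors described here recognise E-boxes, the letters CANNTG. The search covered both strands (CANNTG reads the same on both) and the form CACCTG or its reverse CAGGTG, which is a subset of CANNTG. Of the 9 windows of the 5 members searched, 2 held a CANNTG. Of all 32851 windows of this length, 72.3% held one and 20.2% held CACCTG or CAGGTG. The 9 are not separate promoters. Of them 4 belong to Zeb2, and 2 of those overlap (chr2:45113230-45113529 and chr2:45113204-45113503). The Snai1 window (chr2:167537945-167538244, plus strand) held 1 CACCTG, 126 bases before the start. Of 2 Grhl1 windows on the plus strand, the first (chr12:24572037-24572336) held none and the second (chr12:24580469-24580768) held 1, 180 bases before its start. None of the 4 Zeb2 windows held the motif, and the one nearest the 5′ end of the gene (chr2:45117393-45117692, minus strand) is shown. The single windows of Twist1 and Twist2 held none either. Capitals mark CANNTG.
Snai1: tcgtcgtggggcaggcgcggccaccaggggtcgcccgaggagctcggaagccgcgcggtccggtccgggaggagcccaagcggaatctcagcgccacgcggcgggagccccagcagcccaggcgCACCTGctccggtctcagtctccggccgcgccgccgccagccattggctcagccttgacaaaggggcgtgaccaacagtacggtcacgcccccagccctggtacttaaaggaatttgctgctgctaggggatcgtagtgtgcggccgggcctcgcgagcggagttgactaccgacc
Grhl1 first window: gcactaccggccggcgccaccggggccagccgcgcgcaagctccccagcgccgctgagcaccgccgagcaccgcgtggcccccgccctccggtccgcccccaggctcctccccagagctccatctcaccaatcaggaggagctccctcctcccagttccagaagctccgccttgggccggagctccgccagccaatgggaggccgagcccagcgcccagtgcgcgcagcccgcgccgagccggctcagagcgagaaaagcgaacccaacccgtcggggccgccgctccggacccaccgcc
Grhl1 second window: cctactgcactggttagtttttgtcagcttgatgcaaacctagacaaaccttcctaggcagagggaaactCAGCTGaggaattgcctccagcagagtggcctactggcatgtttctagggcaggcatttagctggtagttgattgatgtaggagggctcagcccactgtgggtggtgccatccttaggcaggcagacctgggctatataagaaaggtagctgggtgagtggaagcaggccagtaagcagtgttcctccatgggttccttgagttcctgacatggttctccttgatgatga
Zeb2: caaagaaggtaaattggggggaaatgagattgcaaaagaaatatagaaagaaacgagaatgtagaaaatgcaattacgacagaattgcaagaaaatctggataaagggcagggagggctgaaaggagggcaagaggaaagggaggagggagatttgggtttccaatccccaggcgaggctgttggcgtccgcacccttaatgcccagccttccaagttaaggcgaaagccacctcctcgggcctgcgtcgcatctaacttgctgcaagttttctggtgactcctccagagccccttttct
A match is a match of letters only, and a window without one says nothing about more distant sites.

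Snai2 was a basal transcript in both genotypes. The gene (ENSMUSG00000022676) occupies bases 14705852 to 14709385 of mm10 chromosome 16, plus strand. It stood at 119, 52.3, 25.4 and 53.7 CPM in KO basal replicates 1 to 4 and at 26.8, 36.9, 22.7 and 76.6 CPM in WT basal replicates 1 to 4. The 4 KO LP libraries held 1 count among them, and the WT LP libraries held 0, 2, 1 and 14 counts. In mature luminal cells it stood at 4.65, 2.16, 0 and 0.717 CPM in KO and at 0, 0.525, 1.58 and 1.02 CPM in WT. Every basal library lay above every luminal library, while KO and WT overlapped within each population.

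In KO, Snai2 rose in basal cells over ML by 5.11 on the log2 scale (SE 0.87, n = 4, edgeR adjusted p = 4.58e-04), and by 5.998 without KO ML replicate 1 (edgeR adjusted p = 4.85e-04). Pooled over 4 libraries, the KO basal level was 35.9 times the ML level, with a 95% exact counting interval of 26.8 to 49.1. Over KO LP it also passed (edgeR adjusted p = 3.41e-05), but with 1 count in LP the pooled ratio of 1467 has a counting interval of 263 to 57987 and the fitted fold change depends on the prior count. In WT it rose over LP by 5.83 (SE 0.99, edgeR adjusted p = 7.05e-04), a pooled ratio of 60.5 (37.6 to 104), and over ML by 5.76 (SE 0.98, edgeR adjusted p = 4.67e-04), a pooled ratio of 60.2 (37.9 to 102). WT LP replicate 4 held 14 of the 17 WT LP counts, and without it the value over LP was 7.70 (edgeR adjusted p = 2.61e-04). These intervals pool the counts of 4 libraries and leave out the spread between libraries. The amplified molecules carried no identifiers, so reads need not be independent and the intervals can be too narrow even for counting error.

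**Figure D1:**
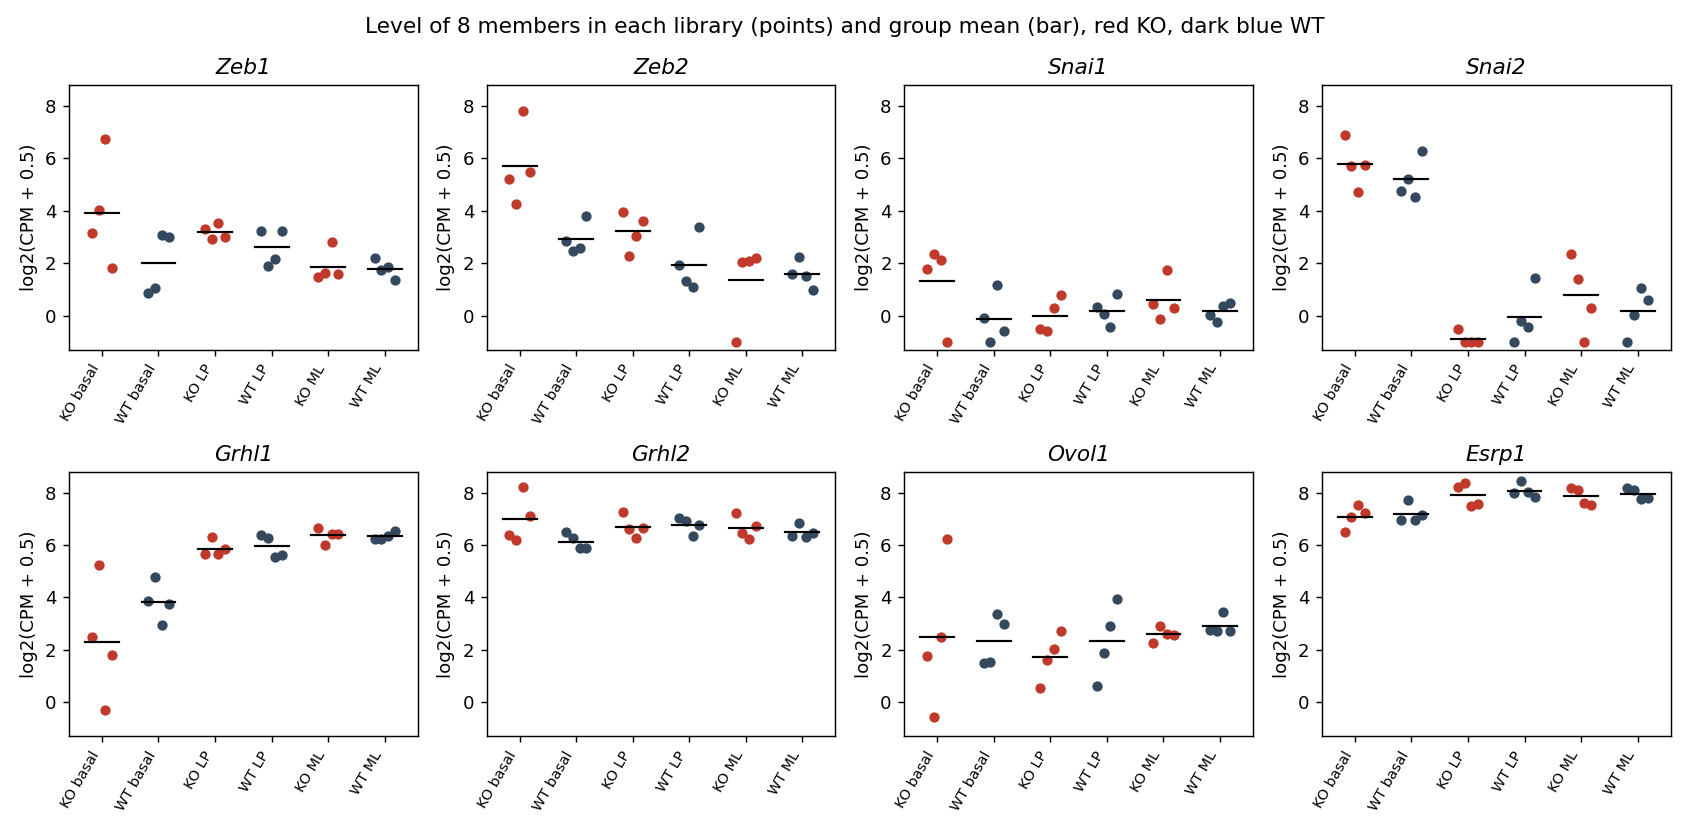
Level of 8 members in each library as log2(CPM + 0.5), with groups on the horizontal axis, red points for KO and dark blue points for WT, and a bar at the mean of the 4 log2 values. Snai2 is high in all 8 basal libraries and at most 4.65 CPM in the 16 luminal ones, Grhl1 and Esrp1 are lowest in basal cells, and Zeb2 in KO basal cells (18.8 to 223 CPM) lies above WT basal cells (4.96 to 13.4 CPM).

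Zeb2 was low in every group but KO basal cells. The gene (ENSMUSG00000026872) spans mm10 chromosome 2 from 44983632 to 45117395 on the minus strand, and the antisense gene Zeb2os overlaps it. The sources used here do not say whether counting used strand, so reads of the pair cannot be told apart. Zeb2 stood at 37.0, 18.8, 223 and 44.0 CPM in KO basal replicates 1 to 4 (231, 101, 693 and 189 counts), against 6.67, 4.96, 5.53 and 13.4 CPM in WT basal replicates (46, 25, 19 and 83 counts). All 4 KO basal libraries lay above all 4 WT basal libraries, and replicate 3 lay far above the other KO libraries. In LP it stood at 14.8, 4.31, 7.81 and 11.5 CPM in KO and 3.31, 1.97, 1.64 and 9.94 CPM in WT. In ML it stood at 0, 3.65, 3.76 and 4.12 CPM in KO and 2.47, 4.20, 2.37 and 1.46 CPM in WT, and the genotypes overlapped in both luminal populations.

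Among KO populations Zeb2 rose in basal cells over LP by 3.17 (SE 0.85, edgeR adjusted p = 0.0173) and over ML by 4.91 (SE 0.93, edgeR adjusted p = 0.00114). In WT the same contrasts gave 0.88 (SE 0.69, edgeR adjusted p = 0.453) and 1.58 (SE 0.70, edgeR adjusted p = 0.116). Every WT basal library lay above every WT ML library, and DESeq2 called that contrast (adjusted p = 0.0499). The call over KO LP was lost without KO basal replicate 3, where the value fell to 1.81 (edgeR adjusted p = 0.121). It was also lost without KO LP replicate 2 or 3 (adjusted p = 0.0514 and 0.0526) and without the expression filter (0.0604). The call over KO ML held in all 12 fits that left out 1 library, down to 3.55 without KO basal replicate 3.

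Zeb1, the paralog of Zeb2 and a repressor of Cdh1, showed a wide spread in KO basal cells. Its levels there were 8.32, 15.8, 105.9 and 3.02 CPM in replicates 1 to 4, against 1.30, 1.59, 7.86 and 7.45 CPM in WT basal replicates. KO replicates 1 to 3 lay above every WT basal library and KO replicate 4 lay within their range. In LP it stood at 9.41, 7.06, 11.1 and 7.52 CPM in KO and 8.79, 3.23, 3.97 and 8.84 CPM in WT. In ML it ran from 2.24 to 6.58 CPM in KO and from 2.05 to 4.03 CPM in WT. Within KO it rose in basal cells over ML by 3.38 (SE 0.90, edgeR adjusted p = 0.0131). That call rested on KO basal replicate 3, without which the value was 1.42 (edgeR adjusted p = 0.158). The other basal contrasts of Zeb1 did not pass with all libraries in edgeR: over LP it was 2.02 in KO (edgeR adjusted p = 0.124) and -0.42 in WT (0.762), and over ML it was 0.64 in WT (0.566). The KO contrast over LP was called by DESeq2 (2.11, adjusted p = 0.0453) and by edgeR without KO basal replicate 4 (2.35, adjusted p = 0.0473), and it was 0.066 without KO basal replicate 3.

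Snai1 was low, and Twist1 and Twist2 were close to undetected. Snai1, the SNAIL repressor itself (ENSMUSG00000042821, mm10 chromosome 2 from 167538195 to 167542814), had 138 counts over all 24 libraries and at most 25 in 1 library. KO basal replicates 1 to 3 held 2.88, 4.65 and 3.86 CPM and replicate 4 held 0, against 0.435, 0, 1.75 and 0.162 CPM in WT basal replicates. Luminal libraries held at most 2.82 CPM. With all libraries of a comparison, Snai1 passed the expression filter in the fits of the 12 KO libraries, where basal over LP was 2.35 (SE 1.16, edgeR adjusted p = 0.204), and in the fit of all 24 libraries. Twist1, a helix-loop-helix factor, had 4 counts in all, 1 in each of 4 libraries. Twist2, its paralog, had 22 counts in 5 libraries, 14 of them in KO LP replicate 4 (2.45 CPM). Neither passed a filter in any comparison, and no difference in them was detectable at this depth.

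Grhl1 ran the other way. This epithelial factor (ENSMUSG00000020656, mm10 chromosome 12 from 24572283 to 24617391, plus strand) stood at 5.12, 37.0, 0.322 and 3.02 CPM in KO basal replicates 1 to 4 and at 14.1, 27.01, 7.28 and 12.8 CPM in WT basal replicates. In LP it stood at 49.7, 79.1, 49.4 and 56.5 CPM in KO and 83.7, 77.6, 45.8 and 48.3 CPM in WT. In ML it ran from 64.2 to 99.9 CPM in KO and from 74.1 to 91.6 CPM in WT. No basal library of either genotype reached the lowest luminal library.

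In KO basal cells Grhl1 fell by 2.75 on the log2 scale relative to ML (SE 0.76, edgeR adjusted p = 0.0171), a call lost without the expression filter (adjusted p = 0.0801). DESeq2 gave no adjusted p for it, and without KO basal replicate 2 the value was -4.75. Relative to KO LP the value was -2.26 (SE 0.75, edgeR adjusted p = 0.0527), just short of passing. It passed with the replicate number as a block, at -3.01 (adjusted p = 0.0130), without KO basal replicate 2, at -4.26 (adjusted p = 7.13e-05), and without KO basal replicate 3, at -1.93 (adjusted p = 0.0430). In WT basal cells Grhl1 fell by 2.03 relative to LP (SE 0.35, edgeR adjusted p = 7.96e-04) and by 2.35 relative to ML (SE 0.35, edgeR adjusted p = 1.51e-04). The highest Grhl1 levels in basal cells were those of replicate 2 of each genotype, the libraries that also held the most luminal progenitor marker transcripts: 1104 CPM in KO basal replicate 2 against 162 to 416 CPM in the other KO basal libraries, and 4335 CPM in WT basal replicate 2. All 5 markers were detected in both groups, but Csn3 alone held 956 CPM of the KO and 3846 CPM of the WT replicate 2 sum. The part of these markers in the Grhl1 level was not tested, and in bulk RNA fewer cells of a type cannot be told apart from less RNA per cell.

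Grhl2, a direct activator of Cdh1 and claudin genes, was expressed in all 24 libraries. The gene (ENSMUSG00000022286) occupies bases 37233036 to 37363569 of mm10 chromosome 15, plus strand, and the antisense gene Gm16136, with at most 74 counts in a library, overlaps it. It stood at 83.4, 73.0, 297 and 138 CPM in KO basal replicates 1 to 4 and at 89.3, 77.1, 58.3 and 57.9 CPM in WT basal replicates. KO replicates 3 and 4 lay above the WT basal range and KO replicates 1 and 2 lay within it. LP libraries held 153, 96.3, 76.6 and 99.7 CPM in KO and 130.3, 119, 80.6 and 108 CPM in WT. ML libraries ran from 74.9 to 149.7 CPM in KO and from 77.9 to 116 CPM in WT. No population contrast of Grhl2 passed: basal over LP was 0.57 in KO (SE 0.40, edgeR adjusted p = 0.388) and -0.60 in WT (SE 0.23, edgeR adjusted p = 0.0922).

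Ovol1, a zinc finger factor of epithelial differentiation, was low apart from 1 library. The gene (ENSMUSG00000024922) occupies bases 5549136 to 5560646 of mm10 chromosome 19, minus strand. It stood at 2.88, 0.186, 5.15 and 75.4 CPM in KO basal replicates 1 to 4 and at 2.32, 2.38, 9.90 and 7.45 CPM in WT basal replicates. Replicate 4 of KO basal held 324 counts, where no other library held more than 95. In LP it stood at 0.960, 2.58, 3.55 and 6.12 CPM in KO and 1.02, 3.23, 7.01 and 15.0 CPM in WT. In ML it ran from 4.31 to 7.02 CPM in KO and from 6.13 to 10.3 CPM in WT. With all libraries no population contrast of Ovol1 passed in edgeR. Basal over LP in KO was 2.73 (SE 1.14, edgeR adjusted p = 0.124). That contrast was called by DESeq2 (2.76, adjusted p = 0.0390) and by edgeR without KO basal replicate 2 (3.09, adjusted p = 0.0356), and it was -0.25 without KO basal replicate 4.

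Esrp1, the epithelial splicing regulator, was the most abundant member per length in LP and ML cells. The gene (ENSMUSG00000040728) occupies bases 11331933 to 11386783 of mm10 chromosome 4, minus strand. It stood at 91.1, 135, 183 and 149.8 CPM in KO basal replicates 1 to 4 and at 124, 212, 124 and 140.2 CPM in WT basal replicates. LP libraries held 296, 334, 177 and 188 CPM in KO and 251, 348, 259 and 227 CPM in WT, and ML libraries ran from 184 to 292 CPM in KO and from 213 to 289 CPM in WT. All KO basal libraries lay below all KO ML libraries, and all WT basal libraries lay below all WT luminal libraries. In KO, basal over LP was -0.74 (SE 0.29, edgeR adjusted p = 0.0982) and basal over ML was -0.65 (SE 0.29, edgeR adjusted p = 0.131). Without KO basal replicate 3 both passed, at -0.97 over LP (edgeR adjusted p = 0.0341) and -0.87 over ML (edgeR adjusted p = 0.0458). Esrp1 fell in WT basal cells by 0.82 relative to LP (SE 0.22, edgeR adjusted p = 0.0187) and by 0.70 relative to ML (SE 0.22, edgeR adjusted p = 0.0313). The LP call was lost without WT basal replicate 1 (adjusted p = 0.0537) or WT LP replicate 2 (0.0861). The ML call was lost in 5 of the 12 fits that left out 1 library (adjusted p from 0.0718 to 0.0765).

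Per kilobase of gene length, Esrp1 or Grhl2 had the highest mean level of the 10 genes in every group. In KO basal cells the order of mean levels was Grhl2 at 48.3 ± 33.8, Esrp1 at 45.4 ± 12.4, Snai2 at 30.8 ± 19.5 and Zeb2 at 9.78 ± 11.6 CPM per kilobase (SD, n = 4). In WT basal cells it was Esrp1 at 48.7 ± 13.6, Grhl2 at 23.1 ± 5.0, Snai2 at 20.1 ± 12.1 and Grhl1 at 4.64 ± 2.54 CPM per kilobase. The spreads of Grhl2 and Snai2 overlapped in WT basal cells, as did those of the first 3 members in KO basal cells. In the luminal groups the order was Esrp1 (76.6 to 88.1), Grhl2 (29.6 to 35.8) and Grhl1 (17.8 to 25.4 CPM per kilobase) in each of the 4 groups, and every other member averaged at most 2.48 CPM per kilobase.

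Counted over members, KO basal cells had 2 members higher than LP and 0 lower of the 8 that passed the filter, where 8.12% of 12711 genes were called higher and 6.69% lower (14.8% in all). KO basal against ML gave 3 higher and 1 lower of 8, where 11.9% of genes were called higher and 7.51% lower (19.4% in all). WT basal against LP gave 1 higher and 2 lower of 7, where 9.12% of 12771 genes were called higher and 6.68% lower (15.8% in all). WT basal against ML also gave 1 higher and 2 lower of 7, where 14% of genes were called higher and 10.6% lower (24.6% in all). Libraries of the populations did not overlap for 3 of 8 members in KO basal against LP and 4 of 8 against ML, where 19.3% and 24.9% of genes did not. In WT this held for 3 of 7 members against LP and 4 of 7 against ML, where 19.5% and 27.3% of genes did not overlap. With so few members, each count moves far with 1 gene. Snai2, called higher in all 4 contrasts, passed no filter in the luminal fits of KO against WT and entered here with its basal counts.

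LP and ML were compared in the same way. In KO, libraries did not overlap for 2 of 8 members, Zeb1 and Zeb2, both above ML in LP, where 18% of genes did not overlap. Their values were 1.35 (SE 0.85, edgeR adjusted p = 0.528) and 1.74 (SE 0.84, edgeR adjusted p = 0.329). Of the 8 members tested in KO 1 was called, Snai2, and it was lower in LP, where 1.59% of genes were called lower and 5.67% in all. Snai2 passed the expression filter in the fit of the 12 KO libraries, basal ones included. It passed in neither luminal fit of KO against WT. The 1 call is therefore no measure against those shares. Snai2 lay lower in LP than in ML, on 1 and 47 counts, a pooled ratio of 0.0245 with a 95% exact counting interval of 6.07e-04 to 0.143 (edgeR adjusted p = 0.0301). That call was lost in 6 of the 12 fits that left out 1 library, with adjusted p from 0.0501 to 0.116, and the libraries of the groups overlapped at 0. In WT edgeR called none of 7 members, where 11.5% of genes were called and 2995 genes, none of them a member, had an unadjusted p under 0.05. WT libraries did not overlap for 0 of 7 members, where 23.8% of genes did not overlap. These counts also move far with 1 gene.

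**Figure D2:**
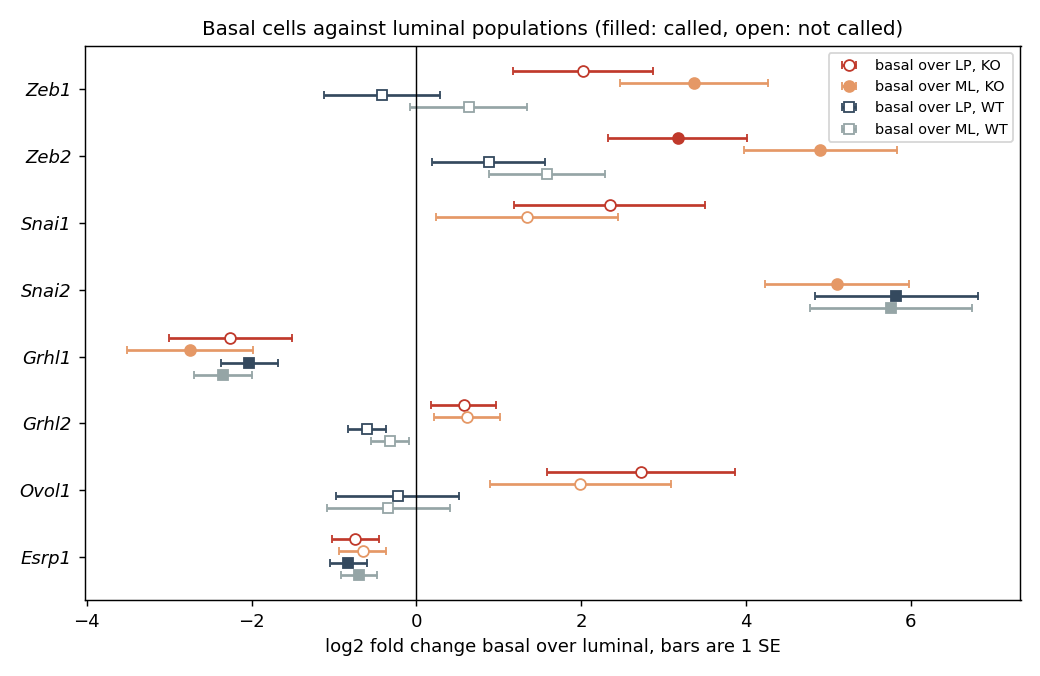
Log2 fold change of basal over LP and over ML cells for each member, in KO (circles) and WT (squares), with bars of 1 SE and filled symbols where the edgeR adjusted p passed 0.05. Snai2 lies beyond 5 in the 3 contrasts drawn, Grhl1 and Esrp1 lie below 0 in all 4, and Zeb2 passes in KO cells; Snai2 over KO LP is not drawn because KO LP held 1 count.

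The comparison of KO with WT asks what loss of Id4 changes in each population. In basal cells none of the 7 members that passed the filter was called by edgeR, where 0% of 11307 genes were called and 383 (3.39%) had an unadjusted p under 0.05. DESeq2 called 6 genes in the same comparison, and voom called 1. The Zeb2 value was 3.47 (SE 0.74, unadjusted p = 2.93e-04, edgeR adjusted p = 0.998), the third smallest p of all genes. Zeb2 was the member whose KO and WT libraries did not overlap, as was so for 2.61% of genes in either direction and for 1.04% with KO above WT. It was called by DESeq2 (adjusted p = 9.94e-04) and by edgeR without the expression filter (adjusted p = 2.21e-05, with 30 genes called), but not by voom with sample weights (2.04, adjusted p = 0.624) or in the fit of all 24 libraries (3.38, adjusted p = 0.0871). Taken within pairs of replicates, it was 2.25 in the first pair (replicates 1 and 2) and 3.90 in the second (replicates 3 and 4).

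The next members by p were Zeb1 at 2.95 (SE 1.06, unadjusted p = 0.0136) and Grhl2 at 1.11 (SE 0.44, unadjusted p = 0.0217), with edgeR adjusted p = 0.998 for both. Zeb1, Zeb2 and Grhl2 all had their highest level in KO basal replicate 3. Without it Zeb2 stood at 2.12, Zeb1 at 0.98 and Grhl2 at 0.48. Without both that library and WT basal replicate 2 they stood at 1.96, 0.72 and 0.54. In replicates 1 and 2 alone Grhl2 was at -0.09 and Zeb1 at 3.06, and in replicates 3 and 4 alone Grhl2 was at 1.98 and Zeb1 at 2.93.

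**Figure D3:**
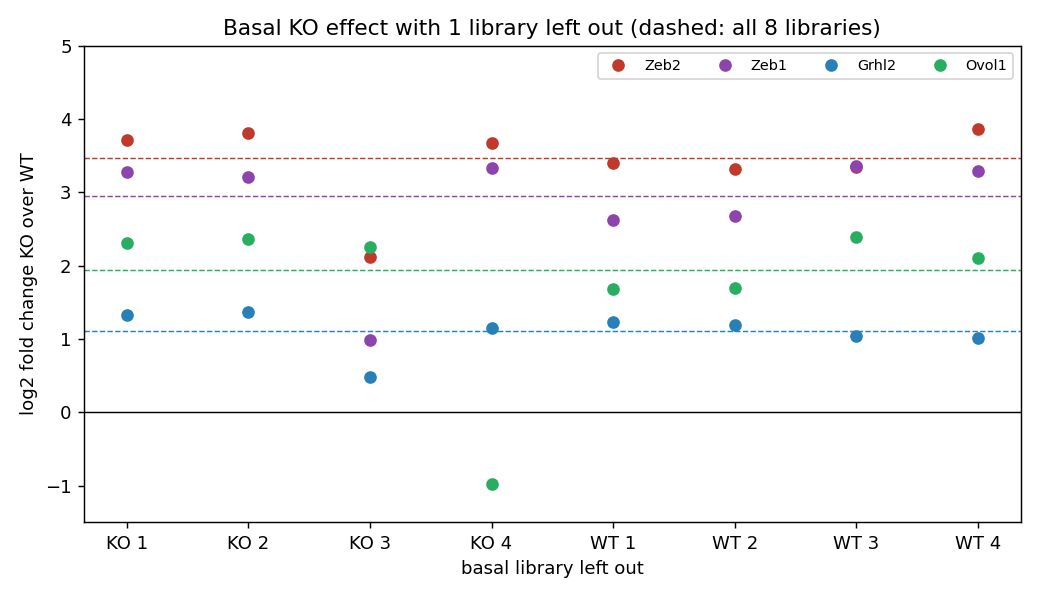
Log2 fold change of KO over WT basal cells for 4 members after leaving out the library named on the horizontal axis, with dashed lines at the value from all 8 libraries. Zeb2 stays between 2.12 and 3.86, Zeb1 drops to 0.98 and Grhl2 to 0.48 without KO replicate 3, and Ovol1 turns to -0.98 without KO replicate 4.

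The other basal members did not approach the threshold. Ovol1 was at 1.94 (SE 1.25), turning to -0.98 without KO basal replicate 4. Snai2 was at 0.61 (SE 0.51), Grhl1 at -0.41 (SE 1.04) and Esrp1 at -0.08 (SE 0.33), all with edgeR adjusted p = 0.998. Of these members the SE was smallest for Esrp1 and largest for Ovol1 and Grhl1, for which differences of several fold would not be detectable here. Such differences also went uncalled by edgeR for Zeb2 at 3.47 (SE 0.74) and Zeb1 at 2.95 (SE 1.06).

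Markers of other cell types were read in the same basal libraries. The 8 endothelial markers summed to 66.3, 64.8, 252 and 72.3 CPM in KO basal replicates 1 to 4 and to 44.5, 60.4, 97.3 and 51.5 CPM in WT basal replicates, and none of the 8 was at 0 throughout either group. Cdh5, vascular endothelial cadherin, reached 133 CPM in KO basal replicate 3, the library with the highest Zeb1 and Zeb2, and 1.40 to 14.1 CPM in the other 3. Pecam1, another endothelial adhesion molecule, stood there at 30.3 CPM, where the other KO basal libraries held 3.26 to 21.8 CPM and WT basal libraries 3.19 to 27.8 CPM, and 1 of the 8 markers was at 0 in it. In KO basal replicates 1, 2 and 4 the endothelial sum lay above WT basal replicates 1, 2 and 4 and below WT basal replicate 3. Zeb2 stood at 18.8 to 44.0 CPM in those KO libraries and at 4.96 to 13.4 CPM in WT basal libraries. The 7 fibroblast markers summed to 134 to 240.3 CPM in KO basal and 95.3 to 249.6 CPM in WT basal cells, and 6 pericyte markers to 32.8 to 103 and 26.4 to 117 CPM, with Kcnj8 at 0 in both groups. Of 8 immune markers, which summed to 9.31 to 30.9 CPM in KO basal and 9.23 to 144 CPM in WT basal cells, Ptprc, Adgre1 and Tyrobp were at 0 in all KO basal libraries. The part of endothelial transcripts in the Zeb1 and Zeb2 values of the KO basal libraries, replicate 3 among them, was not tested.

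**Figure D4:**
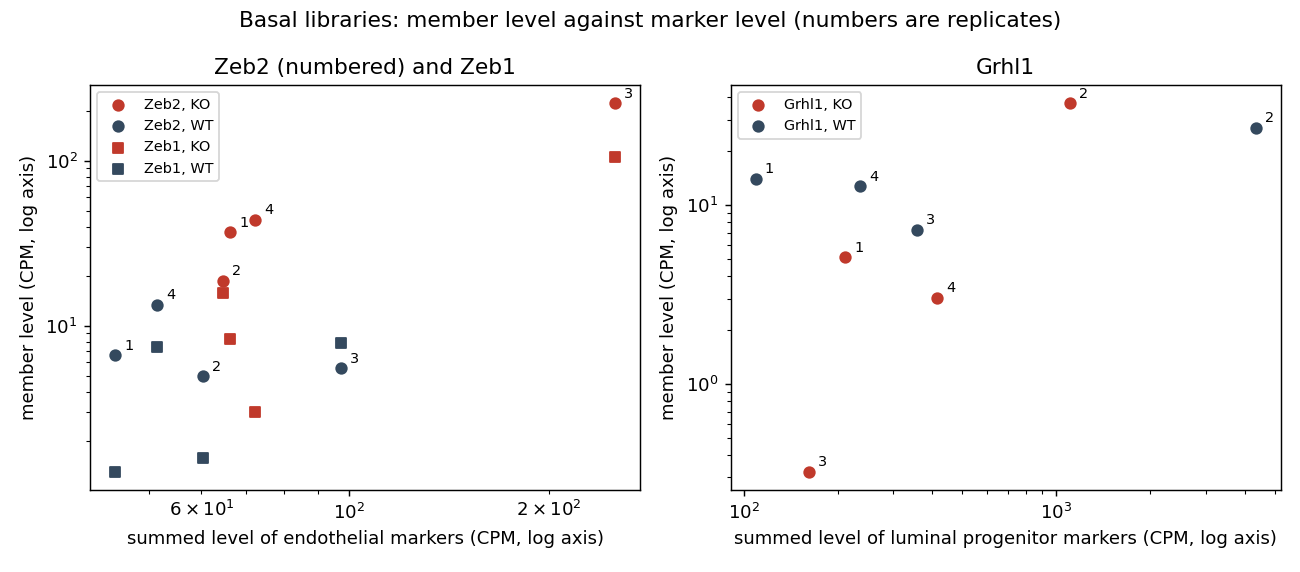
Basal libraries, with member level against summed marker level on log axes and replicate numbers beside the points; left, Zeb2 (circles) and Zeb1 (squares) against 8 endothelial markers, right, Grhl1 against 5 luminal progenitor markers, red for KO and dark blue for WT. KO replicate 3 is highest on both left axes (252 CPM of markers and 223 CPM of Zeb2), and replicate 2 of each genotype is highest for Grhl1 and for luminal progenitor markers. Csn3 makes up most of the marker sum in both of those replicate 2 libraries.

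In luminal progenitors none of the 6 members that passed the filter was called, where 0% of 11700 genes were called by edgeR, 439 had an unadjusted p under 0.05 and DESeq2 called 8 genes. Zeb2 stood at 1.15 (SE 0.63) and Zeb1 at 0.48 (SE 0.47), and Ovol1 at -1.004 (SE 0.78). Grhl1, Grhl2 and Esrp1 lay between -0.14 and -0.06 (SE from 0.24 to 0.26). The edgeR adjusted p was 0.999 for all 6. In mature luminal cells none of 6 was called, where 0.00851% of 11747 genes were called (1 gene) and DESeq2 called 8. The values ran from -0.34 for Ovol1 (SE 0.37) to 0.22 for Zeb1 (SE 0.53), with edgeR adjusted p of at least 0.998. Replicate numbers were taken to pair KO and WT libraries in both luminal populations, but the values above come from fits without that pairing. With the replicate numbers as a block no member was called (Zeb2 in LP at 1.39, edgeR adjusted p = 0.592).

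**Figure D5:**
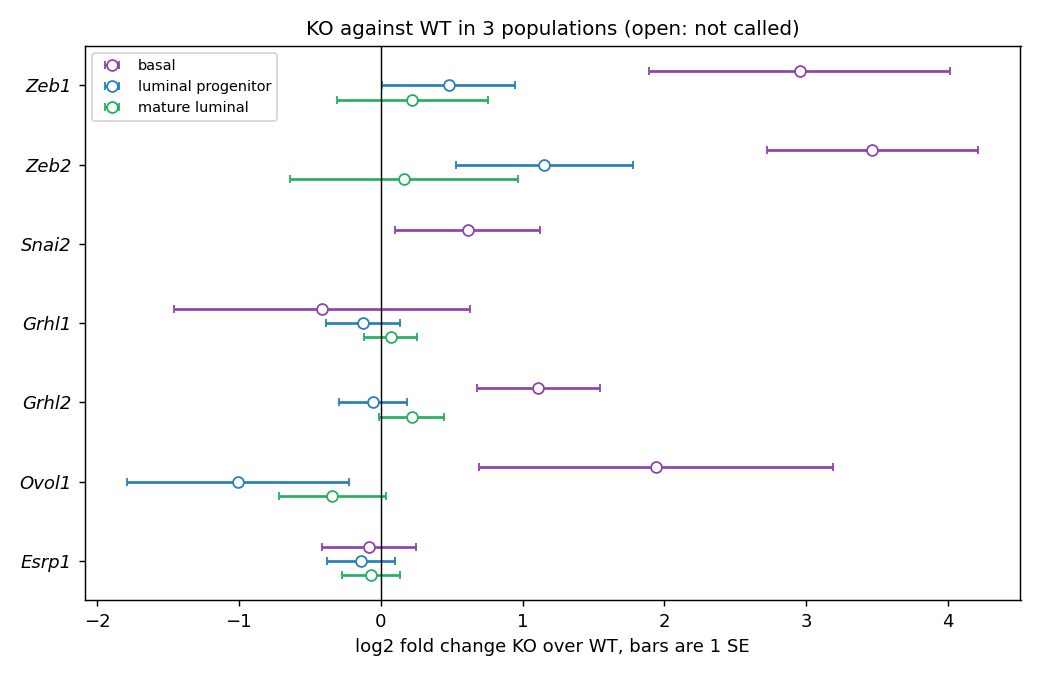
Log2 fold change of KO over WT for the members that passed the filter, in basal cells, luminal progenitors and mature luminal cells, with bars of 1 SE. No symbol is filled because no value passed; the basal values of Zeb2 (3.47) and Zeb1 (2.95) lie farthest from 0.

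Whether the KO value differed between populations was tested directly in the fit of all 24 libraries, where 0% of 14082 genes were called in each of 3 differences. Unadjusted p was under 0.05 for 980 genes in basal minus LP, 970 in basal minus ML and 186 in LP minus ML, and DESeq2 called 29, 30 and 1 genes, none of them a member. For Zeb2 the basal value exceeded the ML value by 3.22 (SE 1.09, unadjusted p = 0.00644, edgeR adjusted p = 0.591) and the LP value by 2.22 (SE 1.06, edgeR adjusted p = 0.704). For Zeb1 these differences were 2.64 (SE 1.12, edgeR adjusted p = 0.647) and 2.37 (SE 1.10, edgeR adjusted p = 0.685), and for Grhl2 0.86 (SE 0.47, edgeR adjusted p = 0.787) and 1.12 (SE 0.47, edgeR adjusted p = 0.614). For Snai2 the basal value exceeded the LP value by 4.01 (SE 1.67, unadjusted p = 0.0235, edgeR adjusted p = 0.614), and the LP minus ML difference was -4.69 (SE 1.75, unadjusted p = 0.0119, edgeR adjusted p = 1.000). Both rest on the 1 count of KO LP and depend on the prior count. For Ovol1 the basal value exceeded the LP value by 2.91 (SE 1.39, unadjusted p = 0.0459, edgeR adjusted p = 0.703), a difference of -0.025 without KO basal replicate 4. None passed, so a KO value particular to basal cells was not shown for any member.

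Genes around the members were read from lists chosen with earlier results of these data known. Their counts stand beside these shares of all genes: over LP, 8.12% were called higher and 6.69% lower in KO basal cells, and 9.12% higher and 6.68% lower in WT. Over ML, 11.9% were called higher and 7.51% lower in KO basal cells, and 14% higher and 10.6% lower in WT. Of 27 epithelial genes known as targets of ZEB or SNAIL repression or of GRHL2 activation, 17 fell and 1 rose in KO basal cells relative to KO LP (median -2.25, all genes -0.01). In WT 17 fell and 1 rose (median -1.70, all genes -0.03). Relative to ML, 16 fell and 2 rose in KO (median -1.93, all genes 0.02) and 16 fell and 1 rose in WT (median -1.38, all genes 0.01). Epcam, an epithelial adhesion molecule, fell by 1.92 relative to LP in KO (SE 0.22, edgeR adjusted p = 2.07e-05) and by 1.63 in WT (SE 0.21, edgeR adjusted p = 6.01e-05). Krt8, a luminal keratin, fell by 2.87 relative to ML in KO (SE 0.32, edgeR adjusted p = 7.61e-06) and by 2.61 in WT (SE 0.34, edgeR adjusted p = 4.58e-05). Epcam and Krt8, with Krt18 and Cldn3, are also the 4 luminal markers, and all 4 are among these 27 genes. Relative to LP and to ML alike, 4 of the 4 luminal markers fell in KO and 3 in WT. The part of luminal identity in the counts of the 27 genes was not tested.

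Of 17 mesenchymal genes, 14 were tested in KO and 15 in WT. In KO basal cells 7 rose over LP (median 1.71) and 13 over ML (median 3.76), and in WT basal cells 10 rose over LP (median 2.82) and 12 over ML (median 2.94), with none lower in these contrasts. The medians of all genes were -0.01 over LP and 0.02 over ML in KO, and -0.03 and 0.01 in WT. Sparc, a matrix glycoprotein, rose over LP by 4.87 in KO (SE 0.45, edgeR adjusted p = 1.99e-06) and by 5.59 in WT (SE 0.29, edgeR adjusted p = 2.34e-08). Mmp2, a gelatinase that cuts matrix proteins, rose over ML by 6.56 in KO (SE 0.53, edgeR adjusted p = 4.94e-07). In WT the vimentin gene Vim rose over ML by 4.10 (SE 0.34, edgeR adjusted p = 8.52e-07). Of 13 other EMT-linked factors, 9 were tested. Over ML 3 rose and 2 fell in KO, and 4 rose and 1 fell in WT. Over LP 1 rose in each genotype, a share close to that of all genes: Tcf4, which encodes the E protein E2-2, by 2.27 in KO (SE 0.27, edgeR adjusted p = 2.58e-05) and 1.61 in WT (SE 0.26, edgeR adjusted p = 5.26e-04). Of 8 epithelial transcription factors 1 rose and 4 fell relative to LP in KO, and 1 rose and 1 fell in WT, a difference between genotypes that was not tested. Relative to ML 1 rose and 2 fell in each genotype. Foxa1, the pioneer factor of hormone-sensing cells, fell by 3.30 relative to LP in KO (SE 0.48, edgeR adjusted p = 1.56e-04). Of 12 corepressors and turnover factors of SNAIL and ZEB proteins, 2 rose over LP in KO and 1 in WT, and over ML 1 rose in KO and 0 in WT. The WT count over LP and both counts over ML lie near or below the shares of all genes called higher. Of 5 paralogs of the members 2 were tested, of which Esrp2 fell by 1.32 relative to LP in KO (SE 0.32, edgeR adjusted p = 0.00873).

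Between genotypes no gene of these 6 lists was called in any population. In basal cells the median was -0.19 over 24 tested epithelial targets and 0.04 over 15 tested mesenchymal genes, beside 0.01 over all genes. In LP the medians were 0.08 over 27 and 0.79 over 13, beside 0.00 over all genes, and 12 of the 13 mesenchymal genes lay above 0, where 50.2% of all genes did. The LP fibroblast markers, which share 3 collagen genes with that list, summed to 168 to 625 CPM in KO and 133 to 441 CPM in WT, with 7 of 7 above 0 (median 0.65). Mature luminal markers also lay above 0 in LP, 5 of 5 with a median of 1.05, and summed to 813 to 1784 CPM in KO and 518 to 815 CPM in WT. KO and WT libraries did not overlap for 2 of these 5, where 2.61% of genes did not in either direction and 1.57% with KO above WT. The part of these markers in the median was not tested. The smallest p values in basal cells belonged to Tcf4 at 1.15 (SE 0.29, unadjusted p = 0.00106), Tnc, a matrix glycoprotein, at 1.42 (SE 0.45) and Spint1, an inhibitor of the protease matriptase, at -2.22 (SE 0.73), each with edgeR adjusted p = 0.998.

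The genes whose level most resembled each member were taken by Pearson correlation of log2(CPM + 0.5) over the 24 libraries among 9218 genes. Population and library are shared by all points, so these values are descriptions. For Snai2 they were Cnn2 (r = 0.947) and Tenm3 (0.946), for Grhl1 Rbm47 (0.953) and Abca3 (0.9497), and for Esrp1 Cldn3 (0.927), a tight junction claudin, and Tmprss13 (0.912). The resemblance was looser for Zeb2 with Spry4 (0.859) and Reck (0.824), Zeb1 with Pcdhb14 (0.796) and Cwf19l2 (0.791), and Grhl2 with Ctsa (0.775) and Stim2 (0.771). For Ovol1 the pair was Plcd4 (0.744) and Tarbp2 (0.727), and for Snai1, with few counts, Setd5 (0.717) and Cwf19l2 (0.696).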

How the data were processed

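Expression was measured in 24 libraries from sorted mouse mammary cells, 4 for each genotype and population. Per the labels' protocols, 0.5 to 2 ng of RNA were amplified with NuGEN Ovation kits. The deposited table gives unnormalized expected counts of each gene, beside a gene length used only to order genes by level. RSEM, STAR, cutadapt and mm10 are named in the submitters' processing notes; the sources used here give no versions, roles, strand use or settings. Expected counts were rounded to whole numbers. The table holds 24007 genes, 25 without a symbol. GENCODE M21 gave gene positions for the members.

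Software was DESeq2 1.42.0, limma 3.58.1, edgeR 4.0.16 and R 4.3.3. Genes were tested two-sided by quasi-likelihood in edgeR, after its default expression filter and TMM scaling, with robust dispersions; p-values were adjusted by Benjamini-Hochberg over all tested genes and called at 0.05. KO was compared with WT from the 8 libraries of a population, populations from the 12 libraries of a genotype, and differences of the KO effect from all 24. Log2 fold changes are those of the fit, and the SE is the fold change divided by the root of F. The script was tested on simulated data. Alternatives were DESeq2, its size factors in edgeR, no filter, a replicate block, voom with sample weights, 1 fit of all libraries, replicates 1 and 2 or 3 and 4 alone, and each library left out. For KO against WT in basal cells only, KO replicate 3 and WT replicate 2 were also left out together. These are the basal libraries named in Results as standing apart on markers.

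The members, lists and marker sets were chosen with earlier results of these data known. Named genes were all members, Id4, the 2 smallest p of each list in a comparison, of which some are printed, the 2 genes most like each member, and list markers. Cdh5 and Pecam1 were singled out from the endothelial markers after their values were seen. So were Csn3 and Elf5 from the luminal progenitor markers. The epithelial target Patj is listed in the table under its older symbol Inadl. Replicate numbers come from the titles; those of KO mature luminal cells differ from the replicate tags. Deviations from the group mean of same-numbered KO and WT libraries correlated above 0.1 in every pair in LP and in ML. The range was 0.119 to 0.354 in LP and 0.121 to 0.333 in ML. The numbers were therefore taken to pair the samples there. In LP 3 of 4 KO libraries were closest to their own number, and in ML 4 of 4. No pair of libraries within a group agreed within sampling noise (chi-square per degree of freedom at least 18.95). The labels call the replicates biological, and p-values measure the spread between these pools. The counting intervals pool the libraries of a group and leave out the spread between them. They also treat reads as independent, which amplified molecules without identifiers need not be.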

Additional observations from a re-analysis of the deposited data

Results flagged for a closer look

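Of 43 combinations of member and group with at least 10 counts in some library, 9 held 1 library far from the other 3. The rule would set about 1 in 20 apart if values were normally distributed, which CPM need not be. The library that brought a combination in could also be the one flagged, as for Twist2. The count of 9 is therefore no measure against chance. In KO basal cells replicate 3 was far above the others for Zeb1 (105.9 CPM, next 15.8) and Zeb2 (223 CPM, next 44.0). Replicate 2 of that group stood apart for Grhl1 (37.0 CPM, next 5.12) and replicate 4 for Ovol1 (75.4 CPM, 324 counts, next 5.15). In KO mature luminal cells replicate 3 was above the others for Zeb1 (6.58 CPM, 35 counts) and replicate 1 had no Zeb2 count (0 CPM, next 3.65). In luminal progenitors Twist2 stood at 2.45 CPM in KO replicate 4 and Snai2 at 2.21 CPM in WT replicate 4, each on 14 counts. In WT mature luminal cells Ovol1 stood at 10.3 CPM in replicate 3, next 6.24. Of these 9 libraries and genes, 4 lay in KO basal cells, in 3 different libraries.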

How the results depend on the processing

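In basal cells, KO against WT called 1 member (Zeb2) with DESeq2 and 1 without the expression filter, against 0 in the edgeR test. Basal against LP in KO called 4 members with DESeq2 and 1 without the filter, against 2, and 1 to 4 when 1 library was left out. LP against ML in KO called 0 to 1 when 1 library was left out. Other counts of member calls stayed within 1.5 times. The cause of these moves was not tested. The share of all genes called in each of these fits is not given here, so the counts describe the members only.

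No member value that passed turned its sign under any alternative. Among values that had not passed, these turned. For KO against WT in basal cells, Ovol1 was -0.061 with the replicate block, -0.90 with voom and -0.64 within replicates 1 and 2; Grhl1 was 0.056 and Grhl2 -0.086 within replicates 1 and 2; Snai2 was -0.27 and Esrp1 0.39 within replicates 3 and 4; and Grhl1 was 0.46 without WT replicate 2 and KO replicate 3. In LP, Grhl2 was 0.0056 and Esrp1 0.084 within replicates 1 and 2, and Grhl1 0.13 within replicates 3 and 4. In ML, Zeb2 was -0.14 with the replicate block, Grhl1 -0.030 with voom, Zeb1 -0.46, Zeb2 -0.78 and Esrp1 0.039 within replicates 1 and 2, and Grhl1 -0.011 within replicates 3 and 4. LP against ML in KO gave Grhl2 -0.012 without the filter. The basal minus ML difference of Esrp1 was 0.018 with DESeq2, 0.019 with its size factors and 0.034 with the replicate block.

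Leaving out 1 library moved these values through 0. KO against WT in basal cells: Grhl1 from -2.43 to 0.064, Esrp1 from -0.26 to 0.17 and Ovol1 from -0.98 to 2.39. In LP: Grhl1 from -0.31 to 0.027 and Grhl2 from -0.27 to 0.068. In ML: Esrp1 from -0.18 to 0.032, Zeb2 from -0.044 to 0.58, Grhl1 from -0.020 to 0.17 and Zeb1 from -0.29 to 0.40. Basal against LP in KO: Grhl2 from -0.094 to 0.83 and Ovol1 from -0.25 to 3.19, and in WT Ovol1 from -0.69 to 0.57. Basal against ML in KO: Grhl2 from -0.046 to 0.86 and Ovol1 from -0.99 to 2.36. LP against ML in KO: Grhl2 from -0.19 to 0.24 and Esrp1 from -0.081 to 0.22, and in WT Snai2 from -1.96 to 0.48, Ovol1 from -0.92 to 0.25 and Zeb2 from -0.16 to 1.01. The basal minus LP difference: Esrp1 from -0.12 to 0.23, Grhl1 from -2.21 to 0.14 and Ovol1 from -0.025 to 3.41. The basal minus ML difference: Esrp1 from -0.18 to 0.18, Ovol1 from -0.66 to 2.72 and Snai2 from -1.25 to 0.20. The LP minus ML difference: Esrp1 from -0.26 to 0.084 and Ovol1 from -1.13 to 0.18.

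Same-numbered KO and WT basal libraries did not all correlate above 0.1 (0.0571 to 0.140), nor did those of different populations. Pairing was therefore not assumed there. Even so, each KO basal library was closest to the WT basal library of its own number in 4 of 4. The same held in WT for basal with LP, basal with ML and LP with ML. A pairing of these libraries is thus not excluded. The replicate block changed no other member call than that of Grhl1 between KO basal and LP cells (-3.01). Depth limits Twist1 and Twist2 throughout, Snai1 outside KO basal cells and Snai2 in luminal cells.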
